A study of Mus musculus with 9 samples.

Results

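The genes described here carry the sensing and transport of bile acids in the hepatocyte. They are the nuclear receptors FXR (Nr1h4) and SHP (Nr0b2), the FGF15 receptor pair Fgfr4 and Klb, the sinusoidal uptake carriers Slc10a1, Slco1a1 and Slco1b2, and the canalicular pumps Abcb11, Abcb4 and Abcc2. They are named by symbol, as a set chosen with earlier results of these data known, and each of the 10 matched 1 row among the 18954 genes of the count table. RNA was read from 9 mouse livers, all labelled day 42. In 5 livers the genotype was GSDMD-NTki/wt with Alb-creki/wt, that is, 1 knock-in allele for the pore-forming N-terminal part of gasdermin D together with 1 Cre allele under the albumin promoter, which works in hepatocytes. The 4 control livers were GSDMD-NTki/wt without Cre. All 9 livers therefore carried the GSDMD-NT allele, and no liver carried Alb-cre alone, so what Cre does by itself and what GSDMD-NT does cannot be told apart.

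Per the series' text, doxycycline sets off cell death in this cross, which serves as a model of liver fibrosis. The labels give no dose and do not say which livers received it. The series also names obeticholic acid, an FXR agonist, but the labels of these 9 livers do not mention it. The labels do not say that the livers came from separate animals, and they give neither age, litter nor sex, so p-values cover the sample-to-sample spread, part of which may be technical. Totals ran from 15584657 to 16823506 counts in the GSDMD-NT Alb-cre livers and from 13361093 to 16392677 in the controls, and the 10 genes held between 122 and 13589 counts per liver. Albumin, the defining hepatocyte transcript, stood at 43042 ± 5751 CPM in GSDMD-NT Alb-cre livers and 54199 ± 6074 CPM in controls (SD, n = 5 and 4). Its log2 fold change was -0.33 ± 0.20 (SE), with an adjusted p of 0.271 in edgeR's test, and the groups overlapped. Gsdmd, whose row need not hold the knock-in transcript and so does not check the genotype, had 41.0 ± 7.16 CPM in GSDMD-NT Alb-cre livers and 38.8 ± 7.17 CPM in controls.

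FXR is a nuclear receptor that bile acids activate directly, and it binds DNA mostly as a heterodimer with RXR. In liver it raises SHP, a receptor without a DNA-binding domain that represses other nuclear receptors, and it raises the pump that drives bile acids into the canaliculus. In the intestine FXR raises FGF15, which travels to the liver, binds FGFR4 with its co-receptor beta-Klotho (Klb) and lowers bile acid synthesis. Hepatocytes take bile acids up from blood through NTCP (Slc10a1) and the organic anion carriers (Slco genes), and they secrete them through BSEP (Abcb11), with phospholipid delivered by MDR2 (Abcb4) and organic anions by MRP2 (Abcc2).

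None of the 10 genes passed the test between the groups. By the quasi-likelihood test of edgeR, adjusted with the Benjamini-Hochberg method over all 14004 tested genes, 0 of 10 had an adjusted p under 0.05, where 18.3% of all tested genes did (9.25% higher and 9.07% lower in GSDMD-NT Alb-cre livers). At an unadjusted p under 0.05 the test gave 1 of the 10, Abcc2, against 34.9% of all tested genes. DESeq2 called 1 of the 10, again Abcc2, and limma-voom called 0. The log2 fold change, GSDMD-NT Alb-cre over control, was below 0 for 8 of the 10 genes and for 48.8% of all tested genes. Its median was -0.31 over the 10 genes and 0.01 over all tested genes. The levels of the groups overlapped for each of the 10 genes, whereas 18.5% of all tested genes had groups that did not overlap. For 7 of the 10 genes the 95% interval of the fold change lay within 2-fold in either direction, and Nr0b2, Klb and Abcc2 were the other genes. Levels are CPM, counts scaled to a fixed library total with TMM factors.

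**Figure D1:**
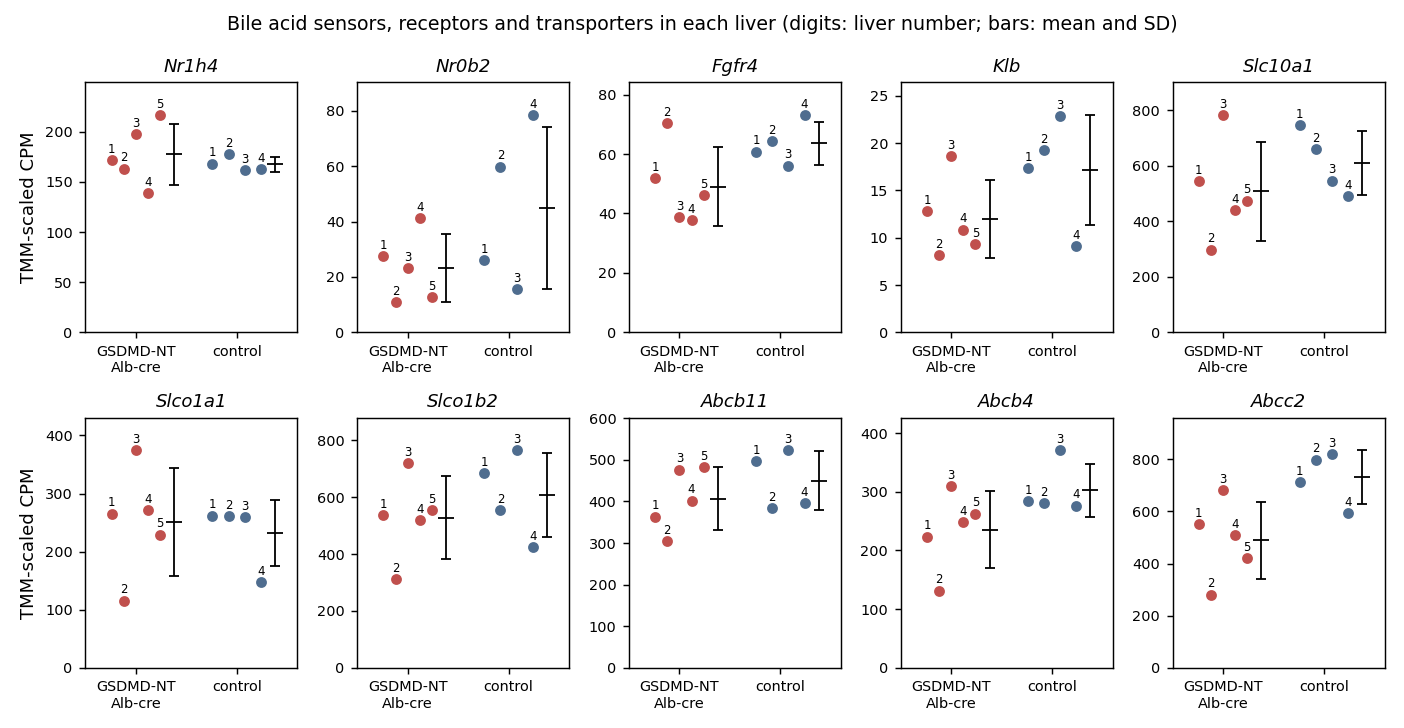
TMM-scaled CPM of each gene in each of the 5 GSDMD-NT Alb-cre livers (red, left) and 4 control livers (blue, right), with liver numbers beside the points and bars for mean and SD. GSDMD-NT Alb-cre liver 2 is the lowest point in 8 of the 10 panels, and the groups overlap in every panel.

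FXR itself stood at nearly the same level in both groups. Nr1h4 (ENSMUSG00000047638.16) had 172, 163, 198, 139 and 217 CPM in livers 1 to 5 of the GSDMD-NT Alb-cre group, against 168, 178, 162 and 163 CPM in controls 1 to 4. The control values lay close together, and the GSDMD-NT Alb-cre values fell on both sides of them. The log2 fold change was 0.08 ± 0.14 (SE, 95% interval -0.21 to 0.38), with an edgeR adjusted p of 0.692. Over all 9 livers the highest level was 1.56 times the lowest, the narrowest range of the 10 genes.

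SHP, the best-known FXR target in liver, varied most. Nr0b2 (ENSMUSG00000037583.3) had 27.7, 11.0, 23.1, 41.1 and 12.8 CPM in livers 1 to 5 of the GSDMD-NT Alb-cre group, against 26.2, 59.8, 15.5 and 78.5 CPM in controls 1 to 4. Controls 2 and 4 were above every GSDMD-NT Alb-cre liver, while control 3 lay among the lower values of the other group. The mean was 23.1 ± 12.2 CPM in GSDMD-NT Alb-cre livers and 45.0 ± 29.2 CPM in controls, a log2 fold change of -0.96 ± 0.46 (95% interval -1.96 to 0.04, edgeR adjusted p = 0.159). The coefficient of variation was 52.9% in GSDMD-NT Alb-cre livers and 65.0% in controls, and the highest of the 9 levels was 7.14 times the lowest. Without control 4 the log2 fold change was -0.55, and without GSDMD-NT Alb-cre liver 4 it was -1.28. An interval this wide holds both a fall to 25.8% of control and no change.

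The 250 bases before the annotated start are shown for Nr0b2 and Abcb11, the textbook FXR targets of the set, and for Abcc2, the gene with the smallest p. They are from RefSeq (GRCm38.p6), given 5′ to 3′ on the strand of the gene. Capitals mark the nuclear receptor half-site AGGTCA read on either strand.
Nr0b2, chr4:133553126-133553375, plus strand: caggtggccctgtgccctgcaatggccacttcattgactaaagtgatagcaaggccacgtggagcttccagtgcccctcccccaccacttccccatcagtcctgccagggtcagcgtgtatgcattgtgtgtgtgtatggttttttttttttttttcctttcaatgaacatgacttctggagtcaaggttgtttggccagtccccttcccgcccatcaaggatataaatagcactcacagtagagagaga
Abcb11, chr2:69342617-69342866, minus strand: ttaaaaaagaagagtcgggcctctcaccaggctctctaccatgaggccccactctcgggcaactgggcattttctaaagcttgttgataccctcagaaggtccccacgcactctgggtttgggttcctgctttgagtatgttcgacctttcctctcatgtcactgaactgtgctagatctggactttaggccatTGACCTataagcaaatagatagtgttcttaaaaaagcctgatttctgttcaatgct
Abcc2, chr19:43782058-43782307, plus strand: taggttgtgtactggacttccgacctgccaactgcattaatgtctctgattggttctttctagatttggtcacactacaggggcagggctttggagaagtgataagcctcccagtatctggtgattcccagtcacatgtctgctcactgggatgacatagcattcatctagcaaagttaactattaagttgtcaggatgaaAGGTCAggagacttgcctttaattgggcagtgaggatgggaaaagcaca
The half-site lay 56 to 51 bases before the start in Abcb11, on the opposite strand, and 49 to 44 bases before it in Abcc2, while the Nr0b2 window held no match. All 10 genes matched the promoter table, with 11 windows because Slc10a1 has a pair of starts. The half-site was in 6 of the 11 windows and in 14.0% of all 32851 windows of the same length. The inverted repeat that FXR is best known to bind (IR1), searched as GGTCA, 1 base and the reverse complement of GGTCA, was in 0 of the 11 and in 0.0335% of all windows. Its half-site is part of AGGTCA, so these searches overlap. Each search took exact letters only, so inexact repeats were not counted. In the Abcb11 window the run ggccatTGACC, which reaches into the marked half-site, differs from the searched repeat at 1 base. The HNF1 half-site GTTAAT was in 2 of the 11 windows (Nr1h4 and Slco1b2) and in 6.43% of all, and the LRH-1 site CAAGGTCA, which contains AGGTCA, and the HNF4 core CAAAGTCCA were in 0 of the 11, against 1.33% and 0.384% of all windows. A match is a run of letters and not a shown binding site, and other parts of these genes were not searched.

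Both parts of the FGF15 receptor had lower means in GSDMD-NT Alb-cre livers, and neither passed the test. Fgfr4 (ENSMUSG00000005320.10), the signalling receptor, had 51.8, 70.4, 38.7, 37.9 and 46.1 CPM in livers 1 to 5 of the GSDMD-NT Alb-cre group, against 60.8, 64.4, 56.1 and 73.2 CPM in controls 1 to 4. All GSDMD-NT Alb-cre livers but liver 2 were below the lowest control, and liver 2 was above all controls but the highest. The log2 fold change was -0.38 ± 0.18 (95% interval -0.76 to 0.00), with an edgeR adjusted p of 0.147. Without GSDMD-NT Alb-cre liver 2 it was -0.55 with an adjusted p of 0.0224, which passes the threshold.

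Klb (ENSMUSG00000029195.11), the co-receptor that gives FGFR4 its affinity for FGF15, had 12.8, 8.12, 18.6, 10.9 and 9.30 CPM in livers 1 to 5 of the GSDMD-NT Alb-cre group, against 17.3, 19.2, 22.9 and 9.08 CPM in controls 1 to 4. Control 4 was the exception among the controls, below all GSDMD-NT Alb-cre livers but liver 2. The mean was 11.9 ± 4.13 CPM in GSDMD-NT Alb-cre livers and 17.1 ± 5.83 CPM in controls, with a log2 fold change of -0.52 ± 0.27 and an edgeR adjusted p of 0.203. Klb was the least counted of the 10 genes, at 122 to 323 counts per liver.

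The uptake carriers did not differ between the groups beyond the spread of the livers. Slc10a1 (ENSMUSG00000021135.9), the sodium-dependent carrier NTCP, had 545, 299, 784, 440 and 475 CPM in livers 1 to 5 of the GSDMD-NT Alb-cre group, against 746, 660, 547 and 490 CPM in controls 1 to 4. GSDMD-NT Alb-cre livers held both the lowest and the highest value, in livers 2 and 3. Its log2 fold change was -0.26 ± 0.24 (95% interval -0.78 to 0.25, edgeR adjusted p = 0.453).

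Slco1a1 (ENSMUSG00000041698.12), a sodium-independent carrier of the sinusoidal membrane, had 266, 116, 374, 272 and 229 CPM in livers 1 to 5 of the GSDMD-NT Alb-cre group, against 262, 261, 260 and 147 CPM in controls 1 to 4. Controls 1 to 3 were nearly equal and control 4 stood apart below them. For Slco1a1 the log2 fold change was 0.11 ± 0.28 (95% interval -0.49 to 0.72, edgeR adjusted p = 0.803). It turned to -0.05 without control 4 and to -0.06 without GSDMD-NT Alb-cre liver 3.

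Slco1b2 (ENSMUSG00000030236.11), the mouse liver carrier of the OATP1B family, had 537, 312, 720, 519 and 556 CPM in livers 1 to 5 of the GSDMD-NT Alb-cre group, against 686, 555, 765 and 426 CPM in controls 1 to 4. Only GSDMD-NT Alb-cre liver 2 was below the lowest control, and no liver of that group was above the highest. For Slco1b2 the log2 fold change was -0.20 ± 0.23 (95% interval -0.70 to 0.30, edgeR adjusted p = 0.561).

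None of the canalicular pumps passed the test, and MRP2 came nearest to it. Abcb11 (ENSMUSG00000027048.16), the pump of conjugated bile acids, had 364, 305, 477, 402 and 484 CPM in livers 1 to 5 of the GSDMD-NT Alb-cre group, against 497, 384, 523 and 397 CPM in controls 1 to 4. GSDMD-NT Alb-cre livers 1 and 2 were below the lowest control. Its log2 fold change was -0.15 ± 0.17 (95% interval -0.51 to 0.21, edgeR adjusted p = 0.555). Exons of the antisense gene Gm13613 and of the pseudogene Gm13614 overlap Abcb11 on the opposite strand in the GENCODE annotation. No source used here gives the strand setting of the counting, so Abcb11 reads cannot be told apart from theirs with certainty.

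Abcb4 (ENSMUSG00000042476.13), the phospholipid flippase whose loss injures bile ducts in mice, had 223, 132, 309, 249 and 263 CPM in livers 1 to 5 of the GSDMD-NT Alb-cre group, against 284, 280, 371 and 276 CPM in controls 1 to 4. All GSDMD-NT Alb-cre livers but liver 3 were below the lowest control. Abcb4 had a log2 fold change of -0.36 ± 0.21 (95% interval -0.82 to 0.09, edgeR adjusted p = 0.235).

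Abcc2 (ENSMUSG00000025194.6), the pump of bilirubin glucuronides and other organic anions, had 550, 281, 680, 508 and 422 CPM in livers 1 to 5 of the GSDMD-NT Alb-cre group, against 713, 798, 821 and 594 CPM in controls 1 to 4. The overlap of the groups rested on GSDMD-NT Alb-cre liver 3, which was above control 4. The mean was 488 ± 149 CPM in GSDMD-NT Alb-cre livers and 731 ± 103 CPM in controls, 66.8% of control by the fit (95% interval 48.0 to 92.9%). The log2 fold change was -0.58 ± 0.22 (95% interval -1.06 to -0.11), with an unadjusted p of 0.0205 and an edgeR adjusted p of 0.0811. Abcc2 passed the threshold in DESeq2 (adjusted p = 0.0446), without GSDMD-NT Alb-cre liver 3 (log2 fold change -0.72, edgeR adjusted p = 0.0323) and after correction for transcript length (-0.70, edgeR adjusted p = 0.0333). On a smooth curve of each liver's levels over transcript length, long transcripts stood higher against short ones in GSDMD-NT Alb-cre livers (-0.01 to 0.22 on the log2 scale) than in controls (-0.36 to 0.01), and the Abcc2 transcript, at 8027 bases, is the longest of the 10.

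**Figure D2:**
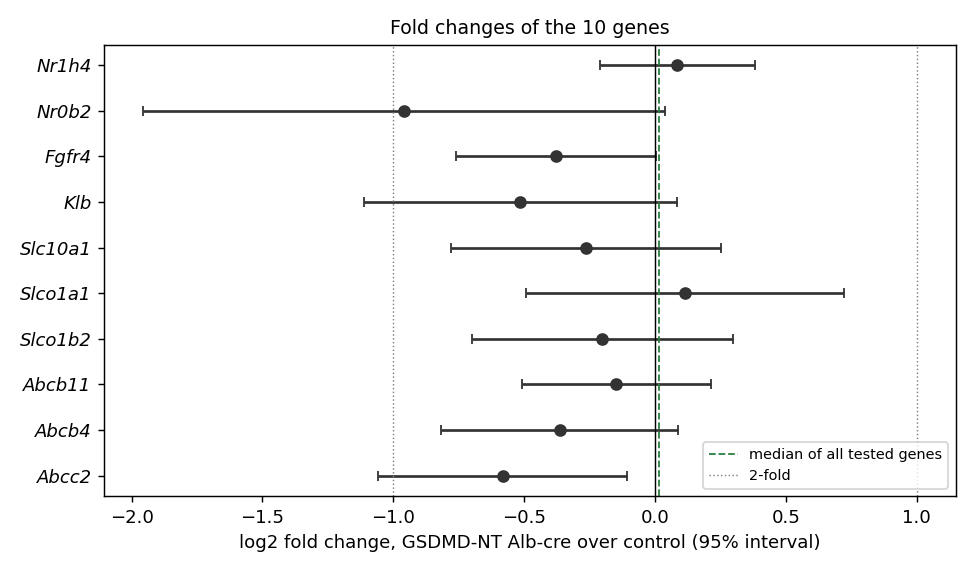
Log2 fold change of each gene, GSDMD-NT Alb-cre over control, with its 95% interval from edgeR's quasi-likelihood fit. Abcc2 is the one gene whose interval lies wholly below 0, and Nr0b2 has the widest interval, -1.96 to 0.04.

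Per kilobase of the longest annotated transcript, Slc10a1 was the most abundant of the 10 genes in both groups, at 291 ± 102 CPM per kilobase in GSDMD-NT Alb-cre livers and 349 ± 65.5 in controls. Slco1b2 came next, at 160 ± 44.0 in GSDMD-NT Alb-cre livers and 184 ± 45.2 in controls. In GSDMD-NT Alb-cre livers the order went on with Nr1h4 at 88.3, Abcb11 at 80.8, Slco1a1 at 64.4, Abcc2 at 60.8 and Abcb4 at 57.7, and in controls with Abcc2 at 91.1, Abcb11 at 89.6, Nr1h4 at 83.3, Abcb4 at 74.2 and Slco1a1 at 59.5 CPM per kilobase. Nr0b2, Fgfr4 and Klb came last in both groups, with Nr0b2 at 20.4 in GSDMD-NT Alb-cre livers and 39.8 in controls, Fgfr4 at 14.7 in GSDMD-NT Alb-cre livers and 19.1 in controls, and Klb at 3.37 in GSDMD-NT Alb-cre livers and 4.84 in controls. Neighbours in this order overlapped in GSDMD-NT Alb-cre livers except Fgfr4 and Klb. In controls Slc10a1 stood clear of Slco1b2, Slco1b2 of Abcc2, Abcb4 of Slco1a1 and Fgfr4 of Klb. With coding length in place of transcript length the first 2 and the last 3 places kept their order in both groups, and the order between them changed.

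Single livers were low or high for several of the genes at once. GSDMD-NT Alb-cre liver 2 was the lowest of the 9 livers for 8 of the 10 genes, all but Nr1h4 and Fgfr4, where it was the lowest for 16.5% of all tested genes. GSDMD-NT Alb-cre liver 3 was the highest of the 9 for 2 genes (Slc10a1 and Slco1a1) and the highest of its group for 6, namely Klb, the 3 uptake carriers, Abcb4 and Abcc2. Of all tested genes it was the highest of the 9 for 10.3%. Control 3 was the highest of the 9 livers for 5 genes (Klb, Slco1b2 and the 3 pumps), and control 4 was the lowest control for 6, those of GSDMD-NT Alb-cre liver 3. Averaged over the 3 uptake carriers, log2 CPM relative to the control mean was -0.02, -0.97, 0.46, -0.13 and -0.14 in GSDMD-NT Alb-cre livers 1 to 5, against 0.24, 0.08, 0.14 and -0.47 in controls 1 to 4. The 3 pumps averaged -0.37, -1.04, 0.02, -0.31 and -0.29 in GSDMD-NT Alb-cre livers 1 to 5, against 0.02, -0.06, 0.24 and -0.19 in controls 1 to 4. Liver 2 was thus about as far below the controls for uptake as for secretion. These livers were singled out after their values were seen, and the genes share each liver's library, so the pattern is a description of 9 samples.

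Genes of the acute phase response, the plasma proteins and signals that hepatocytes raise in inflammation, were set beside these levels. Their mean log2 level relative to the control mean was 1.94, 3.53, 0.15, 1.44 and 2.59 in GSDMD-NT Alb-cre livers 1 to 5, against 0.34, -0.23, -0.09 and -0.01 in controls 1 to 4. The liver with the lowest carriers and pumps had the highest acute phase level, and the liver with the highest carriers had the level nearest the controls. The other livers did not all follow that order. Control 4 had the second-lowest carriers of the 9 livers with an acute phase level at the control mean, and control 1 had the highest carriers and the highest acute phase level of its group. GSDMD-NT Alb-cre liver 5, second in acute phase level, had the second-highest pumps of its group. The summed acute phase level was 40958 to 226552 CPM in GSDMD-NT Alb-cre livers and 33488 to 43804 CPM in controls. Of 33 tested acute phase genes, 25 rose in edgeR's test, against 9.25% of all tested genes. The median log2 fold change of the 33 was 1.85. The count was 13 without control 2 and 13 without control 4. The part of the acute phase in the levels of the 10 genes was not tested.

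**Figure D3:**
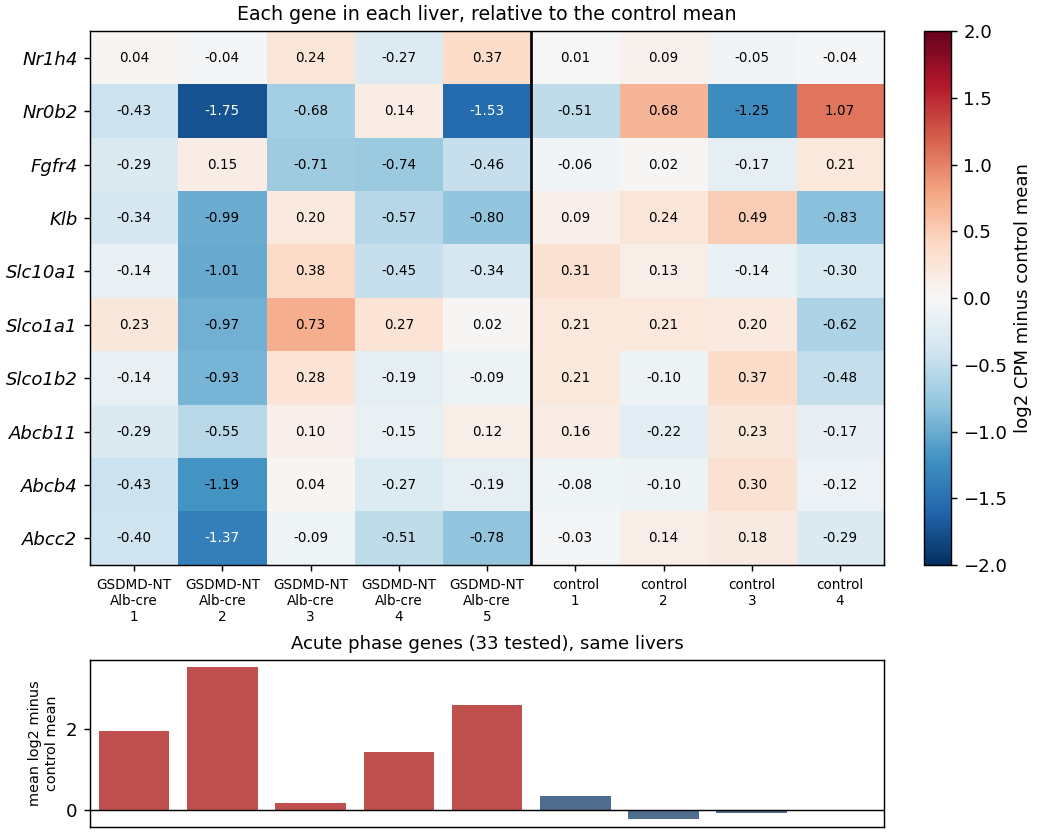
Top, log2 CPM minus the control mean for each gene (rows) in GSDMD-NT Alb-cre livers 1 to 5 and controls 1 to 4 (columns), blue for lower and red for higher. Bottom, the mean of the same quantity over 33 acute phase genes, at 3.53 in GSDMD-NT Alb-cre liver 2 and 0.15 in GSDMD-NT Alb-cre liver 3.

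In bulk tissue, fewer hepatocytes and less of a transcript per hepatocyte cannot be told apart. The summed level of 16 hepatocyte markers was 86726 to 100022 CPM in GSDMD-NT Alb-cre livers and 96889 to 121946 CPM in controls, with 1 marker higher and 2 lower. Cholangiocyte markers (9 tested) and stellate cell and myofibroblast markers (14 tested) had 0 called genes in edgeR's test, with 1 and 0 at an unadjusted p under 0.05. DESeq2 and limma-voom each called 1 cholangiocyte marker lower and 0 stellate markers. Endothelial markers had 2 of 12 higher, Kupffer cell and macrophage markers 1 of 14 higher and 1 lower, neutrophil markers 1 of 3 higher and lymphocyte markers 3 of 6 lower. Of all tested genes 18.3% were called, 9.25% higher and 9.07% lower. The called shares of hepatocyte (18.75%) and Kupffer cell and macrophage markers (14.3%) were near or below 18.3%. Both endothelial calls were in the higher direction, 16.7% against 9.25% of all tested genes. The log2 fold change was above 0 for 11 of 12 endothelial markers, with a median of 0.67. Their mean log2 level relative to the control mean was 0.59, -0.55, 0.96, 1.05 and 0.43 in GSDMD-NT Alb-cre livers 1 to 5. In controls 1 to 4 it was -0.17, 0.52, -0.17 and -0.19. Of the intestinal markers 1 of 2 tested was lower, and of the pancreatic markers 0 of 2 tested passed in edgeR, DESeq2 or limma-voom, with 0 at an unadjusted p under 0.05 in edgeR. These small counts changed when single livers were left out. Without controls 1, 3 or 4 or GSDMD-NT Alb-cre liver 1 the endothelial count was 0, without GSDMD-NT Alb-cre liver 2 it was 6, and without any other liver it was 1. The neutrophil count was 0 without controls 1, 2 or 3 or GSDMD-NT Alb-cre livers 1 or 2 and with limma-voom, and 2 without GSDMD-NT Alb-cre liver 3 and with DESeq2. The higher Kupffer cell and macrophage marker lost its call without controls 2, 3 or 4 or GSDMD-NT Alb-cre livers 1, 3 or 5, and the lower count became 2 once GSDMD-NT Alb-cre liver 2 or control 2 was left out. The intestinal call was lost without controls 2 or 4 or any of GSDMD-NT Alb-cre livers 1 to 4. The lymphocyte count was 1 without control 4 and 1 with a stricter low-count filter. The hepatocyte count of higher markers was 0 without controls 1, 3 or 4 or GSDMD-NT Alb-cre livers 1 or 2, and that of lower markers was 1 once any liver other than GSDMD-NT Alb-cre liver 4 or control 3 was left out. Without GSDMD-NT Alb-cre liver 2, 1 cholangiocyte and 1 stellate marker were lower. Summed endothelial markers ran from 166 to 396 CPM in GSDMD-NT Alb-cre livers and from 213 to 333 CPM in controls, and none was at 0 in any liver. The part of cell composition in the levels of the 10 genes was not tested.

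Other carriers of the same membranes did pass the test. Among 9 other sinusoidal uptake genes 2 fell, against 9.07% of all tested genes. Slco1a4, a carrier of the same family as Slco1a1, had 12.2, 3.93, 15.7, 12.0 and 10.7 CPM in livers 1 to 5 of the GSDMD-NT Alb-cre group, against 39.5, 37.5, 24.5 and 30.7 CPM in controls 1 to 4. Every GSDMD-NT Alb-cre liver was below every control, and the log2 fold change was -1.60 ± 0.29 (edgeR adjusted p = 0.00617). Ephx1, a microsomal epoxide hydrolase also described as a bile acid carrier, fell to 377 ± 119 CPM in GSDMD-NT Alb-cre livers, against 736 ± 113 CPM in controls (log2 fold change -0.96 ± 0.22, edgeR adjusted p = 0.0147). Both calls held when each liver was left out in turn.

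At the canalicular membrane 3 of 11 other transporters fell, against 9.07% of all tested genes. Abcg5 and Abcg8, which together form the sterol exporter into bile, fell together. Abcg5 had 48.4, 36.5, 73.5, 62.6 and 42.4 CPM in livers 1 to 5 of the GSDMD-NT Alb-cre group, against 134, 174, 82.8 and 120 CPM in controls 1 to 4, with no overlap (log2 fold change -1.28 ± 0.23, edgeR adjusted p = 0.00617). Abcg8 fell to 67.0 ± 23.3 CPM in GSDMD-NT Alb-cre livers, against 135 ± 40.8 CPM in controls (log2 fold change -1.01 ± 0.26, edgeR adjusted p = 0.0210), which missed the threshold once control 2 (adjusted p = 0.0693) or GSDMD-NT Alb-cre liver 1 (0.0523) was left out. Aqp8, the water channel of the canalicular membrane, fell to 29.9 ± 5.71 CPM in GSDMD-NT Alb-cre livers, against 80.2 ± 23.1 CPM in controls (log2 fold change -1.42 ± 0.19, edgeR adjusted p = 0.00250).

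The list of basolateral export covered bile acids and other anions, and 2 of its 5 tested genes were lower, against 9.07% of all tested genes. Through such export a cholestatic hepatocyte returns bile acids to blood. Neither lower gene was Abcc3, Abcc4, Slc51a or Slc51b. Abcc3 (MRP3) had 158 ± 53.3 CPM in GSDMD-NT Alb-cre livers and 232 ± 38.4 CPM in controls (log2 fold change -0.55 ± 0.24, edgeR adjusted p = 0.118). Abcc4 (MRP4) had 1.69 ± 0.640 CPM in GSDMD-NT Alb-cre livers and 1.61 ± 1.05 CPM in controls (log2 fold change 0.10 ± 0.42, edgeR adjusted p = 0.894). Slc51a and Slc51b, the organic solute transporter, were below the count filter. The 2 genes that fell, Abcc5 and Abcc6, lost their calls without several single livers, and the count fell to 0 without control 4 and without liver 1 or 5 of the GSDMD-NT Alb-cre group.

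Scaffold, trafficking and junction genes listed for the canaliculus gave 4 higher (Cldn2, Ezr and Myo5b among them) and 1 lower (Ocln) of 19. Of all tested genes 9.25% were higher and 9.07% lower. Ezr was highest in GSDMD-NT Alb-cre liver 4 (17.2 CPM), which also had the highest summed cholangiocyte markers (202 CPM). The cells that gave these transcripts were not tested. Cldn2, a claudin that forms paracellular pores, rose to 93.4 ± 29.1 CPM in GSDMD-NT Alb-cre livers, against 50.7 ± 11.1 CPM in controls (log2 fold change 0.88 ± 0.22, edgeR adjusted p = 0.0197). The count of higher genes was 0 without control 2 and 0 without control 4, 2 without GSDMD-NT Alb-cre liver 5, and the call of Cldn2 was lost without either control (adjusted p 0.0634 to 0.0657). The lower gene, Ocln, lost its call without any 1 of 7 livers (edgeR adjusted p 0.0626 to 0.0984).

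Other FXR targets moved in both directions. Of 16 tested, 2 rose (Sdc1 and C3, which is also an acute phase gene) and 3 fell (Mafg, Osgin1 and Apoe), 31.3% against 18.3% of all tested genes, with a median log2 fold change of -0.25. Mafg, a transcription factor that represses bile acid synthesis genes, had 93.5, 69.5, 101, 103 and 76.8 CPM in livers 1 to 5 of the GSDMD-NT Alb-cre group, against 158, 169, 148 and 197 CPM in controls 1 to 4. Its groups did not overlap, and the log2 fold change was -0.92 ± 0.14 (edgeR adjusted p = 0.00422). The call of Mafg held without each liver, whereas the count of lower genes was 1 without control 2, control 4 or livers 1, 3 or 4 of the GSDMD-NT Alb-cre group. The count of higher genes was 0 without control 2 or control 4 and 1 without control 3 or livers 1 or 5 of the GSDMD-NT Alb-cre group. After correction for transcript length 1 gene was higher and 1 lower, and C3, Osgin1 and Apoe lost their calls. Apoe kept its call in only 1 of the 9 fits that left out 1 liver.

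Bile acid synthesis and conjugation gave 2 higher and 1 lower of 18, 16.7% against 18.3% of all tested genes, so the count was near the background. Cyp7a1, the rate-limiting enzyme of bile acid synthesis and a gene that SHP and FGF15 repress, had 323, 80.6, 240, 104 and 130 CPM in livers 1 to 5 of the GSDMD-NT Alb-cre group, against 39.8, 34.9, 89.3 and 32.9 CPM in controls 1 to 4. It rose by 1.84 ± 0.43 on the log2 scale (edgeR adjusted p = 0.0158), with only GSDMD-NT Alb-cre liver 2 below the highest control. The call was lost without control 2 or control 4 (adjusted p 0.0529 and 0.0579). Cyp8b1, the sterol 12-alpha hydroxylase, had 132 ± 73.5 CPM in GSDMD-NT Alb-cre livers and 117 ± 31.1 CPM in controls (log2 fold change 0.18 ± 0.38, edgeR adjusted p = 0.771). Akr1c6 fell to 439 ± 126 CPM in GSDMD-NT Alb-cre livers, against 841 ± 92.8 CPM in controls (log2 fold change -0.94 ± 0.21, edgeR adjusted p = 0.0122). Hsd3b7 is listed at 0 in all 9 livers, which need not mean absence, since how reads were counted is not given. The count of higher genes was 0 without control 2 or control 4 and 1 without control 3 or any of livers 1, 2, 4 and 5 of the GSDMD-NT Alb-cre group, and that of lower genes was 2 without GSDMD-NT Alb-cre liver 3.

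Among the partners and coregulators of FXR 3 of 22 rose and 3 fell, 27.3% against 18.3% of all tested genes. Rxra, the main hepatic partner, rose to 615 ± 70.5 CPM in GSDMD-NT Alb-cre livers, against 432 ± 54.4 CPM in controls (log2 fold change 0.51 ± 0.14, edgeR adjusted p = 0.0275). It missed the threshold once control 2, 3 or 4, or liver 1 or 5 of the GSDMD-NT Alb-cre group, was left out (adjusted p 0.0573 to 0.0775) and after correction for transcript length (0.0676). Hdac3, the deacetylase of the NCoR and SMRT complexes, fell to 44.3 ± 1.98 CPM in GSDMD-NT Alb-cre livers, against 61.5 ± 8.61 CPM in controls (log2 fold change -0.47 ± 0.11, edgeR adjusted p = 0.0158), and held without each liver. The count of higher genes was 0 without control 2, without control 4 or without liver 1 of the GSDMD-NT Alb-cre group and 1 without its liver 5, and that of lower genes was 1 without control 4. After correction for transcript length the count of higher genes was also 0.

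Of 19 other regulators of bile acid genes 2 rose and 1 fell, 15.8% against 18.3% of all tested genes, which is also near the background. Prox1, a corepressor of Cyp7a1 transcription, rose to 140 ± 34.2 CPM in GSDMD-NT Alb-cre livers, against 78.0 ± 16.1 CPM in controls (log2 fold change 0.85 ± 0.20, edgeR adjusted p = 0.0152), and held without each liver. Hnf4a had 804 ± 115 CPM in GSDMD-NT Alb-cre livers and 614 ± 91.2 CPM in controls (log2 fold change 0.39 ± 0.16), with an adjusted p of 0.0985 in edgeR and 0.0479 in DESeq2. Nr5a2 (LRH-1), Nr1i2 (PXR) and Nr1i3 (CAR) had log2 fold changes of 0.09, -0.11 and -0.39, with edgeR adjusted p of 0.693, 0.614 and 0.274. The second higher gene, Ppara, and the lower one, Nr2f2, each lost the call without at least 6 of the 9 livers left out singly (adjusted p 0.0517 to 0.140).

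Of 26 tested genes of FGF receptor signalling, receptors included, 7 fell and 3 rose (38.5% called, against 18.3% of all tested genes), with a median log2 fold change of -0.47. Spry4, a feedback inhibitor that FGF signalling itself induces, had 1.47, 1.80, 6.75, 4.89 and 2.26 CPM in livers 1 to 5 of the GSDMD-NT Alb-cre group, against 13.4, 17.6, 6.96 and 18.5 CPM in controls 1 to 4. The groups did not overlap, though GSDMD-NT Alb-cre liver 3 came close to control 3, and the log2 fold change was -2.03 ± 0.42 (edgeR adjusted p = 0.00993). Spred1, an inhibitor of the same pathway, fell to 10.9 ± 2.27 CPM in GSDMD-NT Alb-cre livers, against 18.0 ± 1.55 CPM in controls (log2 fold change -0.72 ± 0.16, edgeR adjusted p = 0.0133). Fgfr3, another receptor of the family of Fgfr4, fell to 51.9 ± 6.72 CPM in GSDMD-NT Alb-cre livers, against 83.4 ± 18.5 CPM in controls (log2 fold change -0.68 ± 0.15, edgeR adjusted p = 0.0139). These 3 calls held without each liver. The higher genes, Ptpn11, Shc1 and Grb2, are adaptors and a phosphatase that carry the signal. Their count was 0 without control 2 or liver 5 of the GSDMD-NT Alb-cre group and 1 without control 4 or liver 1 of that group. The count of lower genes was 3 without control 4 or liver 1 of that group and 4 without control 2 or its livers 2 or 5.

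**Figure D4:**
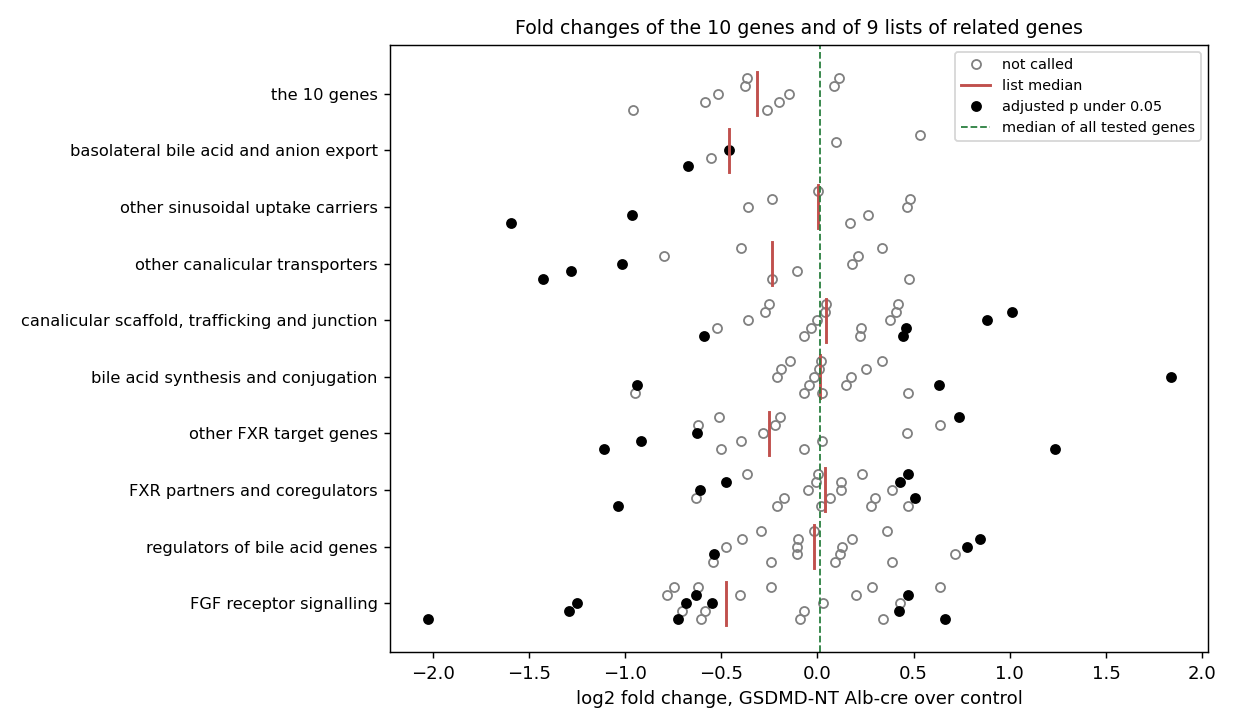
Log2 fold change, GSDMD-NT Alb-cre over control, of the 10 genes (top row) and of the tested members of 9 lists of related genes, filled where the edgeR adjusted p was under 0.05, with list medians in red. No point of the top row is filled, and the FGF receptor list has the lowest median of the 9 lists, -0.47.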

How the data were processed

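RNA was measured in 5 GSDMD-NT Alb-cre and 4 control mouse livers, grouped by title. The table of counts that the authors deposited holds raw whole numbers, 1 per gene and liver. Per the labels' protocols, ribosomal RNA was depleted and paired-end reads came from stranded libraries. The tools named in the submitters' processing notes are fastp 0.23.2 and HISAT2 2.1.0, and the build is GRCm39. How, on which strand and against which annotation reads were counted is given in no source used here.

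Genes passing filterByExpr (14004 of 18954) were scaled by TMM and tested in R 4.3.3 with edgeR 4.0.16 (glmQLFit, glmQLFTest), with Benjamini-Hochberg adjustment across the tested genes and a threshold of 0.05. Each standard error is the log2 fold change divided by the root of its F. The fit was tested on simulated data. Livers of 1 group differed by more than sampling noise in every pair (chi-square per gene 15.3 or more). Alternatives used DESeq2 1.42.0, limma 3.58.1 (voom), other scalings and filters, single livers left out, replicate blocks and an offset for transcript length. Transcript lengths, found for 98.8% of tested genes, and gene overlaps came from GENCODE M21 (GRCm38), so no coordinates of the counted genes are given, and promoter windows came from RefSeq.

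The 10 genes and the lists were chosen with earlier results of these data known. Beside the 10 genes, those named were for each list and direction the called genes of smallest adjusted p, a set of bile acid genes whatever their result, and the 5 genes most alike to Nr1h4 and to Nr0b2. Some of the genes this rule gives are left out of the text. Figures were drawn with matplotlib 3.10.9.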

Additional observations from a re-analysis of the deposited data

Results flagged for a closer look

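Within each group the 10 genes were searched for a single liver far from the others, by Dixon's ratio of the gap to the whole range, and 2 of 20 sets of values passed the 95% critical value. Chance flags about 1 in 20 such sets. Slco1a1 in control 4 stood at 147 CPM, apart from the other controls at 260 to 262 CPM (ratio 0.981). Abcb4 in control 3 stood at 371 CPM, apart from the other controls at 276 to 284 CPM (ratio 0.924).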

How the results depend on the processing

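Of 200 comparisons of a log2 fold change of the 10 genes with an alternative, 193 kept their direction and their side of the threshold. The number of the 10 genes called lower was 1 in place of 0 with DESeq2, with the length correction (both Abcc2) and, over the fits that left out 1 liver, ranged from 0 to 1 (Fgfr4 without GSDMD-NT Alb-cre liver 2, Abcc2 without GSDMD-NT Alb-cre liver 3), and 0 were called higher under each alternative. Leaving out 1 liver gave log2 fold changes of -0.064 to 0.30 for Slco1a1, -0.015 to 0.19 for Gsdmd, -0.13 to 0.41 for Cyp8b1, -0.14 to 0.63 for Abcc4 and -0.028 to 0.19 for Nr5a2, and limma-voom gave -0.019 for Cyp8b1. Over all genes, leaving out 1 liver gave 567 to 1339 higher and 625 to 1184 lower genes, with the fewest without control 2 (567 and 627) and control 4 (588 and 625), then GSDMD-NT Alb-cre livers 1 (755 and 658) and 5 (805 and 801). The cause was not tested. Replicate numbers in the titles and descriptions did not pair the livers: same-numbered livers had correlations of deviations of -0.01 to 0.13 (titles, 4 pairs, 1 of them best with its own number) and -0.11 to 0.05 (descriptions, 3 pairs, 0 of them). With a replicate block on the title number 819 genes were lower, Nr1h4 had a log2 fold change of -0.0076, Cyp8b1 -0.12 and Nr0b2 -0.66, and with a block on the description number 281 genes were higher and 248 lower and Nr0b2 had -0.32 (edgeR adjusted p = 0.794), against -0.96 without a block. Ranks per kilobase moved among the middle places with coding length. The 5 and 4 livers limit the precision, with intervals for Nr0b2, Klb and Abcc2 reaching past 2-fold.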

Other observations

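Liver genes that differ between male and female mice were counted beside the carriers, since Slco1a1 is known as higher in males and Slco1a4 as higher in females. Of 18 male-biased genes 4 fell, and of 11 female-biased genes 2 rose and 3 fell in edgeR's test. Of all tested genes 9.25% rose and 9.07% fell. Mup20, a male-biased urinary protein, fell by 1.22 ± 0.20 on the log2 scale (edgeR adjusted p = 0.00484). Cyp2c40, a female-biased cytochrome, rose to 49.1 ± 3.26 CPM in GSDMD-NT Alb-cre livers, against 5.55 ± 1.73 CPM in controls (log2 fold change 3.15 ± 0.20, edgeR adjusted p = 1.91e-05), while Ntrk2, also female-biased, fell to 2.60 ± 1.40 CPM in GSDMD-NT Alb-cre livers, against 17.6 ± 9.08 CPM in controls (-2.75 ± 0.46, edgeR adjusted p = 0.00484). The count of lower male-biased genes was 2 when control 2, control 4 or liver 1 or 5 of the GSDMD-NT Alb-cre group was left out.

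Over the 9 livers, the genes with levels most like those of Nr1h4, by the mean absolute difference of log2 CPM relative to the control mean among 11472 genes compared, were Naa60 (0.0476), Pxmp4 (0.0612), Zzz3 (0.0650), Dis3l (0.0669) and Mrpl16 (0.0703). For Nr0b2 they were Lhx2 (0.337), Tbx20 (0.366), Macrod1 (0.367), 1700029I15Rik (0.375) and Ntng2 (0.387).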
